A study of Mus musculus with 8 samples.

Results

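The genes described here are 10 genes of oligodendrocyte precursor cells, the dividing glial cells that give rise to myelinating oligodendrocytes: Gpr17, Ptprz1, Sox10, Pdgfra, Cspg4, Olig1, Olig2, Bcas1, Nkx2-2 and Myt1. They were taken by gene symbol from the deposited expression table of 17644 genes, in which all 10 were present. Expression was measured by CAGE (cap analysis of gene expression), in which short tags at the capped start of each RNA are sequenced and counted, in mouse cortex around a surgical cavity. In 4 samples the brain was collected 1 week after the lesion, and in 4 it was collected with no delay. In both groups the animals were male C57BL/6NCrSlc mice of 11 weeks with no transgene named, the motor cortex had been aspirated through a craniotomy, and a rim of 1.0 mm around the cavity was taken, so that the no-delay tissue was also lesioned and no uninjured cortex was compared. Libraries are called here by their group and by the 6-base tag in their column name.

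Precursor cells stay spread through the adult cortex. Pdgfra, the receptor for platelet-derived growth factor A, and the NG2 proteoglycan Cspg4 mark them, and the transcription factors Olig1, Olig2 and Sox10 are kept through the whole lineage. As a cell commits to differentiation it loses Pdgfra and Cspg4 and passes through a short stage marked by the receptor Gpr17 and then by Bcas1, before it makes myelin. After injury to the central nervous system, precursor cells are known to divide and move towards the lesion.

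Each of the 6-base tags (acagtg, then atcacg, then cgatgt, then tgacca, the order in which values are given) occurred once in each group. Whole reads could be recovered for 7 libraries, which held 8278855 to 13998941 reads. For the eighth, the no-delay library tagged cgatgt, 1 read is worth close to 0.1 CPM, and its reads were not used. Summed levels of 10 neuron markers were 6473 to 6858 CPM (tag counts scaled to a common library total, as deposited) at 1 week and 7110 to 7959 CPM without delay. All 10 microglia and macrophage markers tested rose (median log2 fold change 2.05), among them Lyz2, Cd68 and Itgam, and their summed levels were 1535 to 2275 CPM at 1 week and 440 to 450 CPM without delay. Of 8 endothelial markers 7 rose and 1 was not called, with sums of 279 to 328 CPM at 1 week and 172 to 192 CPM without delay. The part of these cells in the results below was not tested. In bulk tissue, more cells of a type and more RNA per cell cannot be told apart, and this holds for every result here. A second tag of 3 bases differs between all 1-week and all no-delay columns, so anything tied to it cannot be told apart from time after the lesion.

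Of the 10 precursor genes, 7 rose at 1 week (Gpr17, Nkx2-2, Bcas1, Ptprz1, Sox10, Olig2 and Olig1), 0 fell and 3 (Cspg4, Myt1 and Pdgfra) were not called. The test was limma on log2(CPM + 1) over 14718 genes, with calls at a Benjamini-Hochberg adjusted p under 0.05, and all 10 genes passed its filter on low values. Of all genes tested, 36.8% were called in either direction, 23.4% higher at 1 week and 13.4% lower. Higher genes made up 63.6% of those called, a share of 52.1% under TMM scaling, 50.9% under median-of-ratios scaling and 43.4% under quantile normalization, and the 7 precursor genes were called higher under each of these. The 2 groups of libraries did not overlap in the same 7 genes, with 1 week higher, which held for 22.7% of all genes tested, and 0 of the 10 showed the opposite order, found in 12% of all genes. The median log2 fold change was 0.64 over the 10 genes and 0.06 over all genes tested. Gpr17, Nkx2-2, Bcas1 and Ptprz1, 4 of the 10, were called with a log2 fold change of 1 or more, against 6.3% of all genes tested, and Sox10, Olig2 and Olig1 lay between 0.60 and 0.65. The labels give 4 brains for each group, and each library is taken here as 1 brain.

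**Figure D1:**
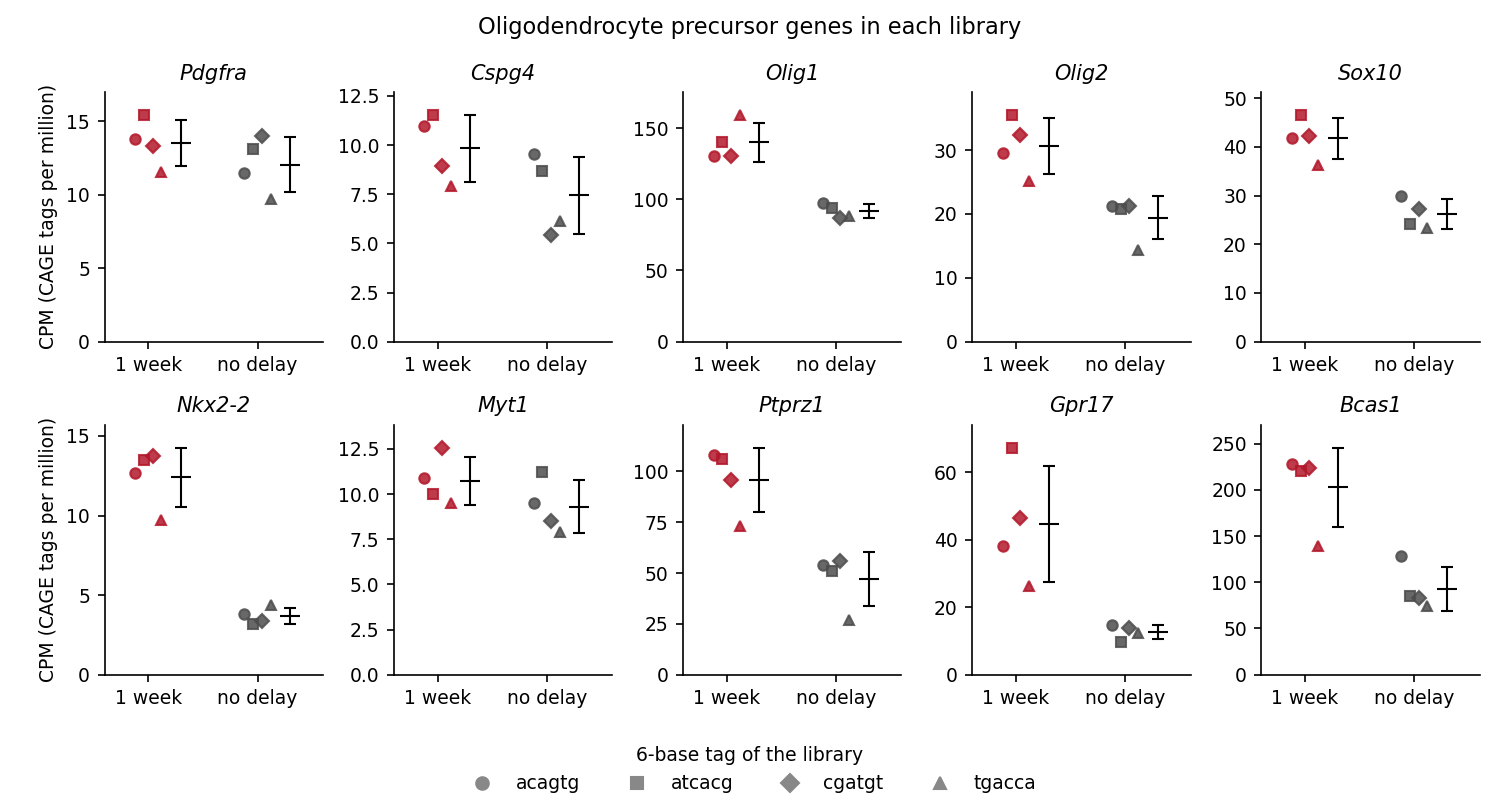
CPM of each of the 10 genes (vertical axes, linear, from 0) in the 4 libraries at 1 week (red) and the 4 with no delay (grey), with marker shapes for the 6-base tag and bars for the mean and SD (n = 4). The groups are apart in Olig1, Olig2, Sox10, Nkx2-2, Ptprz1, Gpr17 and Bcas1 and overlap in Pdgfra, Cspg4 and Myt1, and the 1-week library tagged tgacca is the lowest of its group in 9 of the 10 genes.

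Neither Pdgfra nor Cspg4, the surface markers of precursors, passed the test. Pdgfra, the receptor that carries the main growth signal of precursors, stood at 13.8, 15.4, 13.3 and 11.6 CPM in the 1-week libraries tagged acagtg, then atcacg, then cgatgt, then tgacca, against 11.5, 13.1, 14.0 and 9.69 CPM in the no-delay libraries in the same order of tags. The groups overlapped, and the tgacca library was the lowest of each. The log2 fold change of Pdgfra was 0.16 with a 95% interval of -0.12 to 0.44 (limma adjusted p = 0.356). Cspg4, the NG2 proteoglycan, stood at 11.0, 11.5, 8.93 and 7.90 CPM at 1 week and at 9.53, 8.69, 5.45 and 6.15 CPM without delay. Its groups also overlapped, with the no-delay libraries tagged acagtg and atcacg within the 1-week range. For Cspg4 the log2 fold change was 0.37 with a 95% interval from just under 0 to 0.75 (limma adjusted p = 0.111), and without the no-delay library tagged acagtg it passed the threshold (0.49, limma adjusted p = 0.0470). Both genes are also made by other cells, Cspg4 by pericytes and Pdgfra by fibroblasts around vessels. Of 7 tested pericyte markers 5 rose and 2 were not called (2 rose with quantile normalization), with summed levels of 227 to 286 CPM at 1 week and 158 to 201.0 CPM without delay. Summed levels of 8 perivascular fibroblast markers were 65.9 to 212 CPM at 1 week and 27.4 to 42.9 CPM without delay. One of them, Pdgfrl, passed the filter on low values only through the 1-week libraries, so no count of called genes is given for this list. The part of these cells in the Cspg4 and Pdgfra values was not tested.

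The ligand genes of the PDGF receptors moved in different directions. Pdgfa, which encodes the ligand to which Pdgfra binds on precursors, fell to 27.2, 31.0, 35.9 and 42.5 CPM at 1 week, against 51.6, 53.4, 54.9 and 52.0 CPM without delay. All 1-week libraries were below all no-delay libraries, and the log2 fold change was -0.64 (SE 0.11, limma adjusted p = 8.7e-04). Pdgfd, a ligand that acts mainly through the other PDGF receptor, rose to 8.59 CPM ± 2.04 at 1 week, against 3.70 CPM ± 1.06 without delay (SD, n = 4 each), with a limma adjusted p of 0.00106. Pdgfc was called higher at 16.8 CPM ± 1.21, against 13.7 CPM ± 1.30 (SD, n = 4 each), with a limma adjusted p of 0.0441. The Pdgfc call was lost in 13 of 20 alternatives, whose adjusted p ran from 0.0308 to 0.499, and omission of any one of 6 libraries was among these. Pdgfb was not called. Of the 4 ligand genes 2 were thus called higher and 1 lower, with a median log2 fold change of 0.19.

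Olig1, Olig2 and Sox10, the transcription factors kept through the lineage, all rose. Olig1, a basic helix-loop-helix factor needed for repair of myelin in mice, stood at 131, 140, 131 and 159 CPM at 1 week and at 97.1, 94.2, 87.1 and 88.3 CPM without delay. Its lowest 1-week library was above its highest no-delay library, and the log2 fold change was 0.60 (SE 0.08, limma adjusted p = 5.6e-05). Olig2, its neighbour on chromosome 16 and the factor that specifies the lineage, stood at 29.5, 35.5, 32.4 and 25.1 CPM at 1 week and at 21.2, 20.8, 21.3 and 14.4 CPM without delay. The groups did not overlap, although the tgacca libraries were the lowest of both. In limma Olig2 was higher by 0.64 on the log2 scale (SE 0.14, adjusted p = 0.00312). Sox10, an HMG-box factor that switches on myelin genes, stood at 41.9, 46.6, 42.2 and 36.2 CPM at 1 week and at 30.02, 24.1, 27.3 and 23.4 CPM without delay, again without overlap (log2 fold change 0.65, SE 0.10, limma adjusted p = 2.9e-04).

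Nkx2-2, a homeodomain factor that acts with Sox10 as precursors begin to differentiate, also rose, and the 95% interval of its log2 fold change, 1.21 to 1.81, lay above the intervals of these 3 factors. It stood at 12.7, 13.5, 13.7 and 9.69 CPM at 1 week and at 3.79, 3.20, 3.37 and 4.38 CPM without delay. The lowest 1-week value, in the tgacca library, was above the highest no-delay value, also in a tgacca library. The ratio of means was 3.37, and limma gave a log2 difference of 1.51 (SE 0.14, adjusted p = 4.3e-06) on a scale that understates genes with few reads. Nkx2-2 rested on 105 to 192 reads in the 1-week libraries and on 35 to 42 reads in the 3 no-delay libraries with recovered reads. A gene that overlaps it in the annotation, 6430503K07Rik, had at most 0.21 CPM in any library. Myt1, a zinc finger factor found in precursors and in developing neurons, stood at 10.9, 9.98, 12.6 and 9.53 CPM at 1 week and at 9.53, 11.3, 8.51 and 7.92 CPM without delay. The Myt1 groups overlapped (log2 fold change 0.19, 95% interval -0.09 to 0.47, limma adjusted p = 0.266).

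Other Sox factors did not move as one. Of 6 tested, 3 rose and 3 were not called, with a median log2 fold change of 0.50. Sox9, also counted among the astrocyte markers below, rose to 28.1 CPM ± 4.32, against 10.01 CPM ± 1.98 without delay (SD, n = 4 each). Its adjusted p in limma was 1.0e-05. The progenitor factors Sox4 and Sox2 rose with log2 fold changes of 0.83 and 0.75. The part of astrocytes in the Sox9, Sox4 and Sox2 values was not tested. Sox8, the close relative of Sox10, was not called at 39.3 CPM ± 1.97 at 1 week and 43.1 CPM ± 13.1 without delay (SD, n = 4 each).

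Because CAGE counts the 5' ends of RNA, reference sequence around annotated starts is shown, while the positions of the tags in these libraries were not used here. Windows from RefSeq on GRCm38.p6 (the submitters' processing notes name mm9, another build) were matched for 6 of the 10 genes, with 8 windows in all since Myt1 has several starts. The 3 printed below are those of Nkx2-2, the gene with the largest increase among the 6, Olig2, whose window held 2 kinds of motif, and Pdgfra, which was not called. Each runs 5' to 3' on the gene's strand from 250 bases before an annotated start to 30 after it, and capitals mark matches to the SOX motifs ACAAAG or ACAATG, the E-boxes CAGCTG or CATATG, or TATAAA, on either strand.
Nkx2-2, chr2:147186373-147186652, minus strand: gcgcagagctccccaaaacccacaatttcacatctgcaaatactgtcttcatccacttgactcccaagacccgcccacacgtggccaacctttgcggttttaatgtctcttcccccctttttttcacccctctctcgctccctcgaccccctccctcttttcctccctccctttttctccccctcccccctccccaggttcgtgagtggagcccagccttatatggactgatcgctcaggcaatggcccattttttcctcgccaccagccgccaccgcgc
Olig2, chr16:91225300-91225579, plus strand: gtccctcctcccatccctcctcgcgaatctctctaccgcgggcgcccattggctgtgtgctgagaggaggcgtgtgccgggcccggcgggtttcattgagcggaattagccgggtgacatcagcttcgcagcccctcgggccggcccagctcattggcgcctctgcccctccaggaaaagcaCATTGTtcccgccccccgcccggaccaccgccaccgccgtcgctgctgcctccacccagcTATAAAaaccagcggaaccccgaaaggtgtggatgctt
Pdgfra, chr5:75152001-75152280, plus strand: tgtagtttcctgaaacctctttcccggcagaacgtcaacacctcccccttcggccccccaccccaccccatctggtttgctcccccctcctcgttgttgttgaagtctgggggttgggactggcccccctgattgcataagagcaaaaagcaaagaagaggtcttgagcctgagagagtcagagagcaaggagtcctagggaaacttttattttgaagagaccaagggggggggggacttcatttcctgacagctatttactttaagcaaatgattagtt
In the Olig2 window the ACAATG match lay on the opposite strand and began at base -68, counted from the annotated start, and TATAAA began at base -8. Windows of 300 bases, reaching 50 bases past the start, were searched. ACAAAG was found in 2 of the 8 windows, both of Myt1, and in 18.7% of 32851 windows of the same length over all genes. ACAATG was found in 2 of the 8 windows and in 12.6% of all windows, and TATAAA in 1 of the 8 and in 13.6% of all. CAGCTG and CATATG were in 0 of the 8 windows and in 16.3% and 3.91% of all. CG dinucleotides numbered 25 in the Olig2 window, 17 in that of Nkx2-2 and 17 in that of Cspg4, 29 in that of Ptprz1, 5 in that of Pdgfra and 2, 1 and 1 in those of Myt1, where the median of all windows was 7. A match is a description of these letters, and no use of a site was measured.

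Ptprz1, a receptor tyrosine phosphatase of precursors that is also made by astrocytes, rose at 1 week. It stood at 108, 106, 95.6 and 73.3 CPM at 1 week and at 54.0, 51.2, 55.9 and 27.1 CPM without delay. The groups did not overlap, and the tgacca library was the lowest of both groups. The log2 fold change of Ptprz1 was 1.05 (SE 0.20, limma adjusted p = 0.00139). Of 10 astrocyte markers 9 also rose at 1 week and 1 was not called, with a median log2 fold change of 0.73. Their summed levels were 4514 to 5158 CPM at 1 week and 2251 to 2562 CPM without delay. Within the 1-week group, the acagtg library was highest in Ptprz1 and lowest in the astrocyte marker sum. Among them Gfap, the intermediate filament of reactive astrocytes, averaged 1174 CPM ± 288 at 1 week and 31.4 CPM ± 5.02 without delay (SD, n = 4 each). The water channel gene Aqp4 averaged 109 CPM at 1 week and 23.8 CPM without delay, and the gap junction gene Gja1 averaged 308 CPM at 1 week and 108 CPM without delay. The part of astrocytes in the Ptprz1 value was not tested.

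Mdk and Ptn, genes of 2 growth factors that bind Ptprz1, were higher as well. Mdk, which encodes midkine, stood at 37.7, 41.7, 37.0 and 35.7 CPM at 1 week and at 14.96, 12.3, 11.6 and 14.3 CPM without delay. The lowest 1-week library held more than the highest no-delay library (log2 fold change 1.46, SE 0.10, limma adjusted p = 4.2e-07). Ptn, which encodes pleiotrophin, rose to 517 CPM ± 27.9 at 1 week, against 334 CPM ± 53.4 without delay (SD, n = 4 each), with an adjusted p of 2.8e-04 in limma. Of the 5 binding partners in the table, these 2 rose, where 23.4% of all genes tested were higher. Cntn1, Nrcam and Il34 were not called, and the median log2 fold change of the 5 was 0.32 (-0.07 with quantile normalization). Cntn1, a neuronal adhesion protein, averaged 387 CPM ± 29.7 at 1 week and 435 CPM ± 19.9 without delay (SD, n = 4 each), with every 1-week library below every no-delay library. Its limma adjusted p was 0.0799, and it was called lower in 4 of 20 alternatives (adjusted p 0.015 to 0.236 in the full set). These 4 were TMM and median-of-ratios scaling, the 6-base tag as a term, and DESeq2, in which 2 of the partners were lower.

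Both genes of cells leaving the precursor state rose. Gpr17, the receptor of committed precursors, stood at 38.3, 67.3, 46.4 and 26.4 CPM at 1 week and at 14.7, 9.78, 13.8 and 12.3 CPM without delay. All 1-week libraries were above all no-delay libraries, but they differed among themselves, with the atcacg library at the top and the tgacca library at the bottom. The ratio of means was 3.54 and the log2 fold change 1.68 (SE 0.22, 95% interval 1.20 to 2.16, limma adjusted p = 9.0e-05). Gpr17 overlaps another gene, Lims2, in the annotation, and the use of strand in counting is not given in the sources used here. Lims2 stood at 4.18 CPM ± 0.889 at 1 week and at 4.59 CPM ± 1.12 without delay (SD, n = 4 each), with an adjusted p of 0.667 in limma. Bcas1, a protein of newly formed and early myelinating oligodendrocytes, stood at 228, 221, 224 and 139 CPM at 1 week and at 128, 85.3, 82.7 and 74.6 CPM without delay. The highest no-delay library, tagged acagtg, lay just below the lowest 1-week library, tagged tgacca. For Bcas1 limma gave a log2 difference of 1.13 (SE 0.18, adjusted p = 3.5e-04). In both groups Bcas1 and the sum of the myelin genes given below were highest in the acagtg library and lowest in the tgacca library. The part of myelinating cells in the Bcas1 value was not tested.

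**Figure D2:**
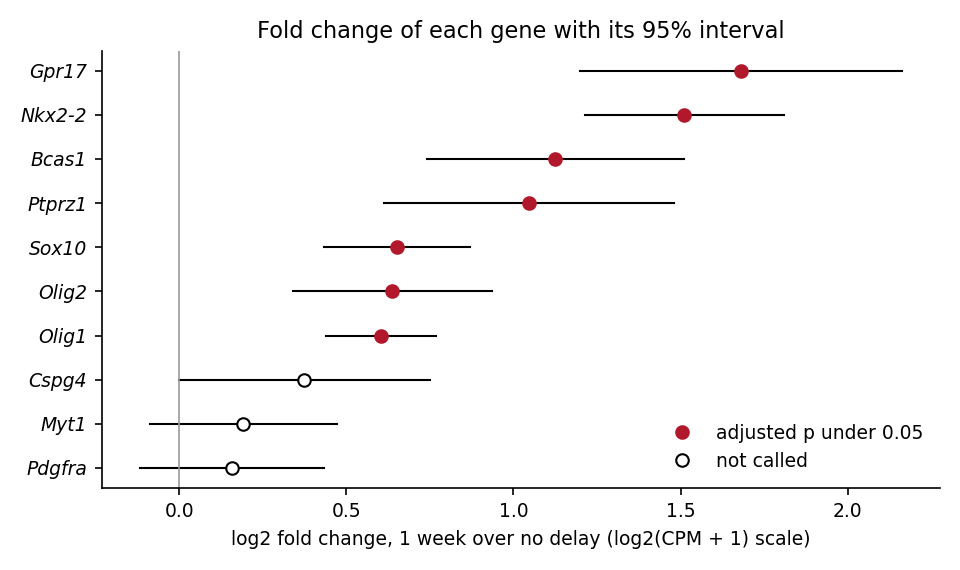
Log2 fold change at 1 week over no delay of each of the 10 genes, with its 95% limma interval (n = 4 each); filled points were called at an adjusted p under 0.05. Gpr17 (1.68) and Nkx2-2 (1.51) stand highest, Sox10, Olig2 and Olig1 lie between 0.60 and 0.65, and the intervals of Cspg4, Myt1 and Pdgfra include 0.

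Other genes of newly formed oligodendrocytes were higher with Gpr17 and Bcas1. Of 10 tested, 8 rose and 2 were not called, with a median log2 fold change of 0.95 (0.06 over all genes tested). The count that rose was 7 under TMM and median-of-ratios scaling, in edgeR and DESeq2, and in limma without the variance trend. With quantile normalization 8 rose and 1 fell, and omission of 1 library gave 7 or 8. Enpp6, a choline phosphodiesterase of newly formed oligodendrocytes, stood at 18.7, 36.1, 29.1 and 15.5 CPM at 1 week and at 7.68, 4.75, 6.73 and 5.83 CPM without delay. Its 1-week libraries had the order of Gpr17, with atcacg highest and tgacca lowest (log2 fold change 1.78, SE 0.23, limma adjusted p = 6.6e-05). Zfp488, a zinc finger factor of oligodendrocyte differentiation, averaged 6.27 CPM ± 1.31 at 1 week and 2.26 CPM ± 1.08 without delay (SD, n = 4 each), with an adjusted p of 0.00102 in limma. Bmp4, a secreted signal also made by committed precursors, averaged 4.33 CPM ± 1.13 at 1 week and 1.38 CPM ± 0.377 without delay, with an adjusted p of 5.4e-04 in limma. Gm98, the symbol the table uses for the myelin regulator Myrf, was not called at 20.7 CPM ± 1.63 at 1 week and 21.5 CPM ± 6.67 without delay. The other gene of this list that was not called was Lims2, given above with Gpr17.

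A second list of 11 precursor genes gave a mixed picture. Of 10 tested, 5 rose, 1 fell and 4 were not called, with a median log2 fold change of 0.39 (0.15 to 0.45 over the alternatives). The 4 not called were Cacng4, Pcdh15, C1ql1 and Mmp15, with log2 fold changes of -0.19, -0.10, -0.04 and 0.20. The sialidase gene Neu4 averaged 6.01 CPM ± 2.36 at 1 week and 2.49 CPM ± 0.550 without delay (SD, n = 4 each), with an adjusted p of 0.00536 in limma. The matrilin gene Matn4 averaged 11.9 CPM ± 3.97 at 1 week and 5.98 CPM ± 0.566 without delay, with an adjusted p of 0.00237 in limma. The Neu4 call was lost with quantile normalization (adjusted p = 0.0635; 0.00135 to 0.0635 over all its alternatives). Versican (Vcan), a matrix proteoglycan, rose to 21.4 CPM ± 5.07 at 1 week, against 13.2 CPM ± 2.10 without delay, and the transcription factor gene Sox6 rose to 19.6 CPM ± 2.26 at 1 week, against 11.4 CPM ± 1.78 without delay (SD, n = 4 each), with an adjusted p of 5.6e-04 in limma for Sox6. Xylt1, which starts the sugar chains of proteoglycans, fell to 25.8 CPM ± 4.21 at 1 week, against 37.7 CPM ± 9.11 without delay, with overlapping groups (limma adjusted p = 0.0206). Its call was lost with the 6-base tag as a term, and also without the 1-week or the no-delay library tagged atcacg. With quantile normalization 4 genes of this list rose and 2 fell. Cell cycle genes, which any dividing cell uses, summed to 78.4 to 96.7 CPM at 1 week and 49.6 to 62.8 CPM without delay over 10 genes. The largest part of these sums was Pcna, which averaged 47.6 CPM at 1 week and 43.8 CPM without delay. Pcna was not called (limma adjusted p = 0.306). Mki67, Top2a, Cdk1 and Ccna2 passed the filter on low values only through the 1-week libraries, so no count of called genes is given for this list. Mki67, a marker of dividing cells, averaged 3.09 CPM at 1 week and 0.15 CPM without delay, below the level of 3 reads. In which cells these genes were used was not measured.

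Myelin genes were next in the course of the lineage. Of 12 tested, 7 rose and 5 were not called, with a median log2 fold change of 0.60. The count depended on single libraries: it was 1 without the 1-week library tagged atcacg, 2 without the one tagged cgatgt, 3 without the one tagged acagtg and 8 without the one tagged tgacca. It was 2 without the no-delay library tagged tgacca, 3 without the one tagged atcacg, 4 without the one tagged cgatgt and 10 without the one tagged acagtg, and on the reads of 7 libraries it was 1 with edgeR and 2 with DESeq2. With the 6-base tag as a term 10 rose and 1 fell. In the same omissions the count over the 10 precursor genes stayed at 7 or 8. Cldn11, which forms tight junctions within myelin, rose to 86.4 CPM ± 16.6, against 42.1 CPM ± 9.68 without delay (SD, n = 4 each), with an adjusted p of 3.8e-04 in limma. Mbp and Mag, with overlapping groups, were called at adjusted p = 0.0319 and 0.0286 in limma, and these calls were lost in 9 and 8 of 20 alternatives, with adjusted p from 0.00198 to 0.268 for Mbp and from 0.00400 to 0.172 for Mag. The sum of the 12 genes was 4247, 4197, 3780 and 2515 CPM at 1 week and 3636, 2165, 2155 and 1612 CPM without delay. The groups overlapped, since the no-delay acagtg library lay above the 1-week tgacca library. For each 6-base tag the 1-week sum was above the no-delay sum, but no label says that a shared tag marks paired samples.

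**Figure D3:**
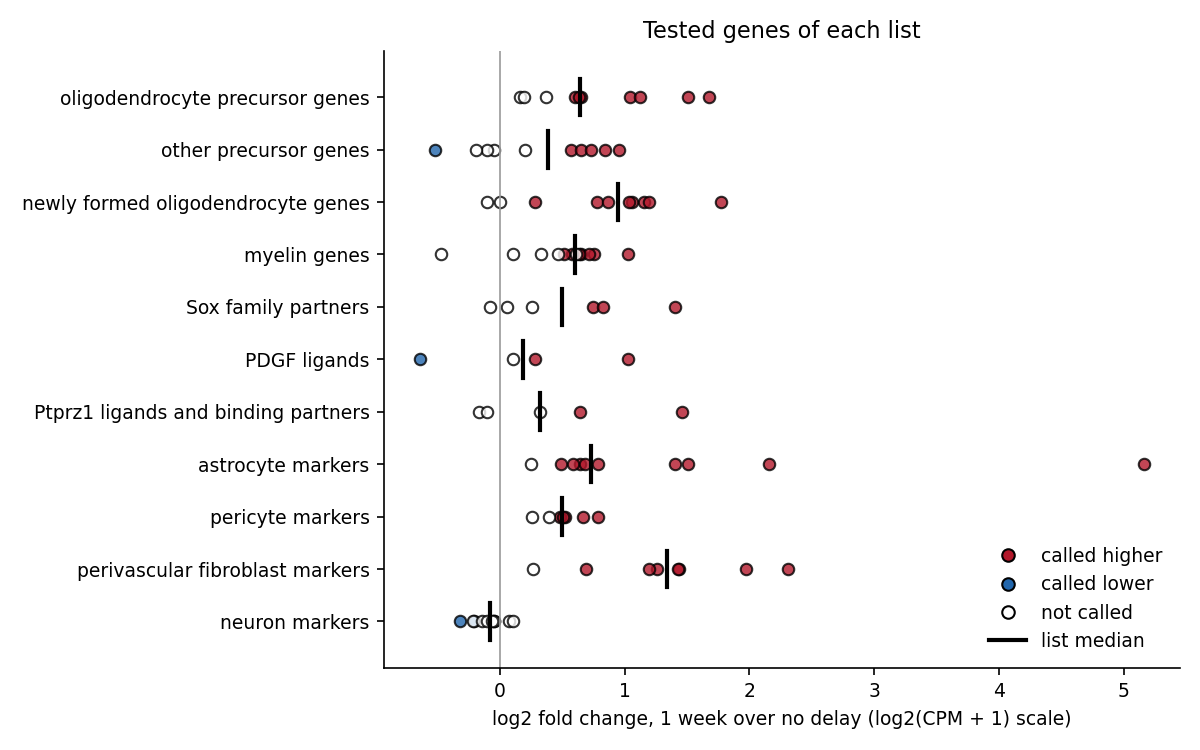
Log2 fold change at 1 week over no delay of each tested gene (points) in the precursor genes and 10 comparison lists, with the list median as a bar (n = 4 each). The median is 0.64 in the precursor genes, 0.95 in newly formed oligodendrocyte genes, 0.60 in myelin genes and -0.08 in neuron markers.

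Genes that restrain differentiation were called about as often as genes in general. Of 10 in the list of Notch, BMP and Lingo1 signalling, 2 rose, 1 fell and 7 were not called, where 36.8% of all genes tested were called and 23.4% were higher, with a median log2 fold change of 0.12 (-0.06 with quantile normalization). Lingo1, a membrane protein of neurons and oligodendrocytes that holds back myelination, fell to 132, 105, 111 and 134 CPM at 1 week, against 181, 210, 190 and 181 CPM without delay. The groups did not overlap (log2 fold change -0.66, SE 0.09, limma adjusted p = 9.3e-05). Among neuron markers 0 of 10 rose, 2 fell (Rbfox3 and Syt1) and 8 were not called, with a median of -0.08. The count of neuron markers that fell was 4 under TMM, median-of-ratios scaling and edgeR, 5 in DESeq2, 3 under quantile normalization, and 1 with no filter, and also 1 without the no-delay library tagged acagtg or atcacg or any one of the 1-week libraries. The Syt1 call was lost in 7 of 20 alternatives (limma adjusted p = 0.0363, up to 0.0922 among them) and that of Rbfox3 in 0. The part of neurons in the Lingo1 value was not tested. The receptor genes Notch1 and Bmpr1a rose with log2 fold changes of 0.57 and 0.45 (limma adjusted p = 0.00255 for Notch1 and 0.00450 for Bmpr1a). Hes1, Hes5, Id2 and Id4, target genes of these pathways, were among those not called.

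Whether 2 genes of the lineage changed by different amounts was tested as the log2 ratio of their CPM + 1 within each library. The ratio of Gpr17 to Pdgfra was 1.41, 2.06, 1.73 and 1.12 in the 1-week libraries and 0.33, -0.39, -0.02 and 0.31 in the no-delay libraries. The 2 genes were near equal without delay, and Gpr17 was above Pdgfra in each 1-week library, a difference of 1.52 between the group means (exact 2-sided permutation test over 70 arrangements, p = 0.0286, the smallest that 4 against 4 allows, and 0.0571 after adjustment over the 4 ratios tested). The ratio of Bcas1 to Pdgfra was 3.95, 3.75, 3.98 and 3.48 at 1 week and 3.37, 2.62, 2.48 and 2.82 without delay. These groups did not overlap either, and the difference was 0.97 (exact permutation p = 0.0286, adjusted 0.0571). Neither ratio passed 0.05 after adjustment. In both, all 4 of the 1-week libraries lay above all 4 of the no-delay libraries, which is the same fact as the smallest p and adds nothing to it. The ratios were chosen with earlier results of these data known, and each sets a gene called higher against Pdgfra, which was not called.

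Ratios between transcription factors differed by less than the spread between libraries. The ratio of Sox10 to Olig2 was 0.44 ± 0.07 at 1 week and 0.43 ± 0.20 without delay (SD, n = 4 each), a difference of 0.01 (exact permutation p = 0.83). For Olig1 to Olig2 it was 2.16 ± 0.31 at 1 week and 2.20 ± 0.24 without delay, a difference of -0.03 (exact permutation p = 0.771), with the tgacca library highest in both groups at 2.62 and 2.54. A p of this size does not show that the genes changed alike.

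**Figure D4:**
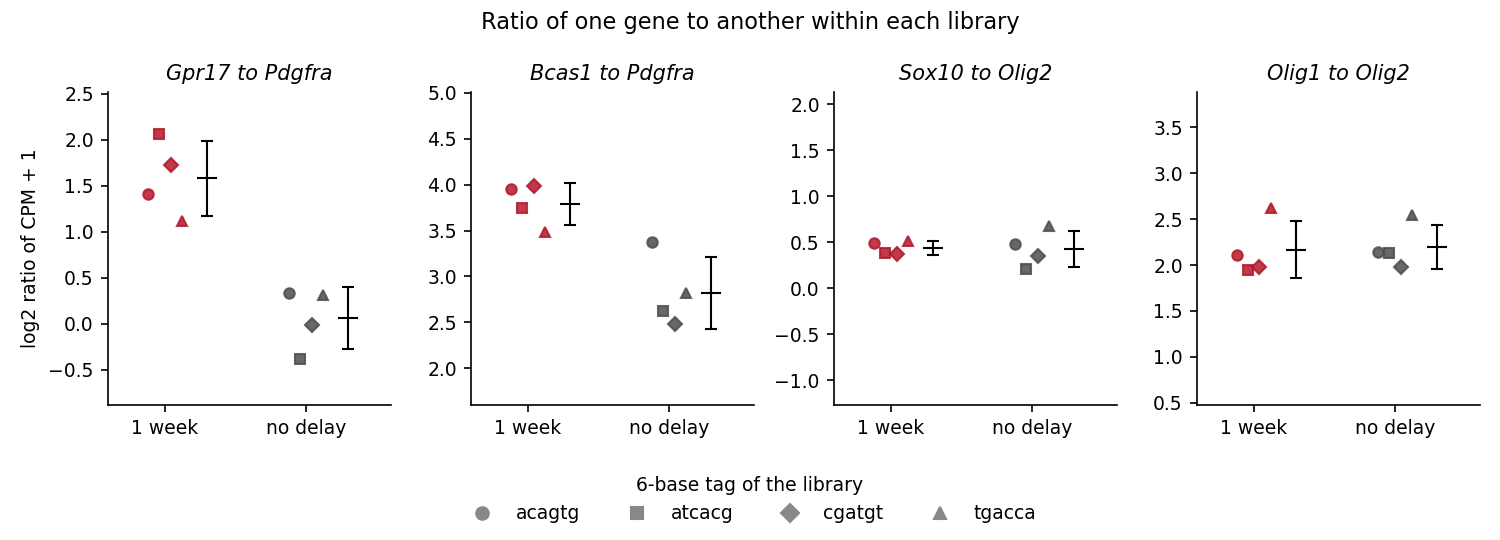
Log2 ratio of CPM + 1 of one gene to another (vertical axes, each spanning the same range) in the 4 libraries at 1 week (red) and the 4 with no delay (grey), with mean and SD bars (n = 4). The Gpr17 to Pdgfra and Bcas1 to Pdgfra ratios are apart between the groups, with differences of 1.52 and 0.97, and the Sox10 to Olig2 and Olig1 to Olig2 ratios overlap.

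The 10 genes were also put in order of CPM, since CAGE counts 1 end per RNA whatever its length. Whether tags were counted equally well for each gene was not tested. The order is therefore one of CPM, and the order of RNA amounts may differ from the CPM order. At 1 week the CPM order ran from Bcas1 (mean 203 CPM) through Olig1 (140), Ptprz1 (95.7), Gpr17 (44.6), Sox10 (41.8), Olig2 (30.6), Pdgfra (13.5), Nkx2-2 (12.4) and Myt1 (10.7) to Cspg4 (9.84 CPM). Neighbours with overlapping ranges were Bcas1 and Olig1, Gpr17 and Sox10, and each pair from Pdgfra down to Cspg4. Without delay Gpr17 was sixth, at a mean of 12.6 CPM and overlapping with both Olig2 and Pdgfra, and Nkx2-2 was last at 3.69 CPM, below the range of Cspg4.

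Libraries of 1 group differed together across the 10 genes. At 1 week the library tagged tgacca was lowest in 9 genes and highest in the remaining one, Olig1, and the library tagged atcacg was highest in 5. The 10 genes summed to 625, 667, 620 and 498 CPM in the 1-week libraries tagged acagtg, then atcacg, then cgatgt, then tgacca, and to 379, 322, 319 and 268 CPM in the no-delay libraries. The no-delay library tagged tgacca was lowest in 6 genes and the one tagged acagtg highest in 5. Myelin gene sums were lowest in the same tgacca libraries, and astrocyte marker sums were 4514, 5022, 5158 and 4943 CPM at 1 week and 2489, 2297, 2562 and 2251 CPM without delay. The tgacca library was thus the lowest in astrocyte markers without delay but not at 1 week. Without the 1-week library tagged tgacca 7 of the 10 genes were called higher, and without the no-delay one also 7.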

How the data were processed

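CAGE tags per gene were deposited as CPM (tag counts scaled to a common library total), scaled by the authors, for 17644 gene symbols and 8 columns. The submitters' processing notes list the aligner BWA 0.5.9 and the build mm9. How tags were assigned to genes, and whether strand was used, is not given in the sources used here. Column names give the group and a tag but no replicate number, so columns were assigned to groups. In 7 libraries 100% of values were whole multiples of 1 read within 0.1 reads, and 3 reads, the limit that 0 observed reads allow, correspond to 0.214 to 0.362 CPM there, a limit that covers counting error only.

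Genes with 1 CPM or more in at least 4 libraries were tested on log2(CPM + 1) with limma 3.58.1 under R 4.3.3, 2-sided, the variance following mean expression, with Benjamini-Hochberg adjustment over 14718 genes, and 2926 genes were not tested. Fold changes lie on that scale. Ratios were tested by exact permutation. The members, lists and tests were chosen with earlier results of these data known, and lists were described by counts and medians. All 10 genes are named, and from each other list up to 3 called genes with the largest absolute log2 fold change. Sox8, Gm98, Vcan, Xylt1, Cacng4, Pcdh15, C1ql1, Mmp15, Pcna, Cntn1, Nrcam, Il34, Pdgfb and the Notch and BMP targets were named after their values were seen. Of 123 list entries 122 matched the table, 2 through synonyms, and a further gene of the second precursor list is not reported here. No row shared all its values with one of the 10 genes. Alternatives were other pseudocounts, filters, scalings, limma settings, omission of each library, and, added after seeing the data, edgeR 4.0.16 and DESeq2 1.42.0 on the reads of 7 libraries and the 6-base tag as a term. The fits were checked on simulated reads, in which a small random set of genes was changed in both directions. That check does not cover the dependence on scaling described below.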

Additional observations from a re-analysis of the deposited data

Results flagged for a closer look

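Within groups of 4, a library was marked when its gap to the nearest other library divided by the group's range exceeded Dixon's 95% critical value for 4 samples. Of 100 groups checked (the genes named by rule, in each group) 7 were marked, where chance gives about 1 in 20. Among the 10 precursor genes, Ptprz1 was 27.1 CPM in the no-delay library tagged tgacca against 51.2 to 55.9 CPM in the others, Olig2 was 14.4 CPM in the same library against 20.8 to 21.3 CPM, and Bcas1 was 139 CPM in the 1-week library tagged tgacca against 221 to 228 CPM. Without these libraries the means were 53.7 CPM for Ptprz1, 21.1 CPM for Olig2 and 224 CPM for Bcas1. In the 1-week library tagged atcacg, Matn4 was 17.8 CPM against 9.42 to 10.7 CPM, Col3a1 was 53.0 CPM against 7.97 to 10.8 CPM, and Kcnj8 was 4.80 CPM against 5.56 to 5.70 CPM. Col1a1 was 3.57 CPM in the no-delay library tagged atcacg against 8.23 to 8.91 CPM.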

How the results depend on the processing

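Of 200 recomputed fold changes of the 10 genes, 196 kept their direction and their side of the threshold, and the calls of Gpr17, Nkx2-2, Bcas1, Ptprz1, Sox10, Olig1 and Olig2 held in all 20 alternatives. Quantile normalization turned the uncalled values of Pdgfra to -0.07 and of Myt1 to -0.09. Cspg4 was called with the 6-base tag as a term (adjusted p = 0.0358), an alternative added after seeing the data, and also on omission of the no-delay acagtg library (adjusted p = 0.0470), with adjusted p up to 0.771 over all alternatives. The count of precursor genes called higher was therefore 7 or 8. Over all genes, 3439 were called higher and 1971 lower, and 2600 to 3443 and 1406 to 2132 when 1 library was left out. With quantile normalization 3211 genes were lower. The share of higher genes among those called was 63.6% on deposited CPM, 52.1% under TMM, 50.9% under median-of-ratios scaling and 43.4% under quantile normalization, and 54.5% in edgeR and 51.1% in DESeq2 on 7 libraries. The median over all genes was 0.06, and -0.04 under quantile normalization. The planned count tests on 8 libraries were not run, since reads of 1 were not recovered. The causes of these differences were not tested. Leaving out 1 library gave differences of 1.36 to 1.67 for the ratio of Gpr17 to Pdgfra, 0.85 to 1.15 for Bcas1 to Pdgfra, -0.06 to 0.09 for Sox10 to Olig2 and -0.19 to 0.08 for Olig1 to Olig2, where 3 against 4 cannot reach an exact p under 0.0571. A pseudocount of 5 turned the Olig1 to Olig2 difference to 0.03. No paired analysis was possible because the column names carry no replicate number, and no label says that a shared 6-base tag marks paired samples. Treated as a block, that tag gave 8 precursor genes called higher and 0 lower, and 3484 higher and 1986 lower over all genes. Depth limits Nkx2-2 without delay most, with 35 to 42 reads.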
